A study of Mus musculus with 3 samples.

Results

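The genes of cholesterol and fatty acid synthesis were followed across cell classes of the mouse dorsal root ganglion (DRG) and between adult and aged libraries. The set held 29 genes, listed by symbol, and all were found among the 32227 genes of the count tables. They comprised 6 genes of the mevalonate branch, 11 genes of the squalene and sterol branch, 5 genes that control the pathway and 7 genes of fatty acid synthesis.

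Nuclei came from L3 to L5 DRG of C57BL/6 mice and were profiled by PIP-seq, a droplet method that counts molecules by their identifiers (UMIs). One library came from adult mice of 3 months, and the other two, aged 1 and aged 2, from mice of 21 months. The labels name no transgene or treatment, and the sources used here do not give how many mice went into a library. With 1 adult library, age and library cannot be told apart. The p-values for age draw only on the spread between the aged libraries, which may be technical. The fits pool this spread over genes, so a p-value does not measure the spread of its own gene alone.

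The tables held 167664164, 95647106 and 69045987 UMIs in the adult, aged 1 and aged 2 libraries, and 11518, 5130 and 2611 barcodes with more than 1000 genes, at most 1 of them shared by any pair of libraries. Clusters were named from marker genes, which gave 7 classes: nuclei like satellite glial cells (SGC-like), non-myelinating and myelinating Schwann cells (NMSC-like, MSC-like), neurons, fibroblasts, endothelial cells and myeloid cells. The labels give male for every library, whereas Xist, the transcript of the inactive X chromosome of females, stood at 1414, 844 and 929 CPM (UMIs scaled to the same total in every sum), which male mice alone would not give. Y-linked transcripts were present too. Ddx3y stood at 20.6, 13.2 and 7.87 CPM, from 1860, 738 and 296 UMIs. Uty stood at 2.73, 1.00 and 0.718 CPM, from 246, 56 and 27 UMIs. Kdm5d had 91, 33 and 23 UMIs and Eif2s3y 9, 3 and 1 UMIs. The study's methods on animals give aged mice as female and adult mice as of both sexes. For DRG explants they name male and female mice, aged ones included. The sex of the mice behind each library is thus uncertain. Nsdhl and Ebp are the members on the X chromosome. In SGC-like nuclei the median depth was 3094, 7111 and 7533 UMIs, and the nuclear RNA Malat1 took 8.56, 1.96 and 2.18 percent of UMIs. RNA outside nuclei, summed over barcodes of at most 100 UMIs, made up an estimated 25.1%, 12.0% and 10.8% of the MSC-like and 21.0%, 15.2% and 14.3% of the SGC-like UMIs. Each estimate is the lowest ratio, over several marker lists of other classes, of a list's level in the sum to that in this RNA. Neuron markers set it in MSC-like and adult SGC-like sums, and myeloid markers in both aged SGC-like sums. The SGC-like values thus do not rest on the same list. Neuron markers stood at 2771, 5351 and 3626 CPM in SGC-like sums and at 13202, 19154 and 18156 CPM in this RNA. The part of these differences in the results below was tested only where a value is given.

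Levels are CPM within a class and library, a quantity that is not adjusted for gene length, so levels are compared within a gene. Fold changes for age come from edgeR, which rescales the libraries within a class. Before that rescaling the median gene was higher in aged libraries by 0.22 in SGC-like and by 0.17 in MSC-like sums on the log2 CPM scale, and the fitted log2 changes are relative to this shift. A member was called where the Benjamini-Hochberg adjusted p of the fit over all genes was under 0.05. Fewer cells of a type within a class and less RNA per nucleus cannot be told apart in such sums.

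Cholesterol is built from acetyl-CoA through mevalonate, which is turned into farnesyl diphosphate, then into squalene, and then through lanosterol by a series of sterol enzymes. SREBP2, encoded by Srebf2, switches these genes on when sterols in the endoplasmic reticulum are low, and SREBP1, encoded by Srebf1, acts mainly on fatty acid genes. Scap escorts both factors out of the endoplasmic reticulum, and the Insig proteins hold them there. Myelin is rich in cholesterol, and Schwann cells make much of what they need for it.

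SREBP factors bind the sterol regulatory element, often beside CCAAT boxes and GC boxes, so these letters were searched in RefSeq promoters on GRCm38.p6. A promoter was at hand for 24 of the 29 genes. The missing ones were Sqle, Fdft1, Fdps, Scd1 and Scd2. In the 250 bases before a start, CCAAT on either strand was found in 20 of the 24 genes and in 14 of the 14 from the mevalonate and sterol branches, against 37.5% of all 27025 genes with a promoter. GGGCGG on either strand was found in 20 members, against 35.4% of all genes. The sterol regulatory element, searched as TCACNCCAC on either strand, was found in 1 member, Hmgcs1, against 1.22% of all genes. These are matches of letters, and binding was not measured.

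A few of these windows are shown, read in the direction of transcription, with each match of the 3 motifs on either strand in capitals. Hmgcs1 (chr13:119690101-119690350, plus strand), Mvd (chr8:122443423-122443672, minus strand) and Sc5d (chr9:42264301-42264550, minus strand) are shown for the genes that were lower in aged MSC-like nuclei. Srebf1 (chr11:60222582-60222831, minus strand) is shown as the gene that was higher there, by the window farthest upstream of its 3. Its middle window held GC boxes, and the one farthest downstream held GC boxes and a CCAAT box. Elovl6, which was lower in aged MSC-like nuclei, had none of the 3 motifs in its window. The windows shown are thus examples and do not compare lower with higher genes.
Hmgcs1: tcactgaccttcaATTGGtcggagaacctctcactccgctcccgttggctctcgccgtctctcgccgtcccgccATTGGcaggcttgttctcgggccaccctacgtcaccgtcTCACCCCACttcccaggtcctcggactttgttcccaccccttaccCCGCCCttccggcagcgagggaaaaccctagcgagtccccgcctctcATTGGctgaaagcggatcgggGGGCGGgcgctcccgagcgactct
Mvd: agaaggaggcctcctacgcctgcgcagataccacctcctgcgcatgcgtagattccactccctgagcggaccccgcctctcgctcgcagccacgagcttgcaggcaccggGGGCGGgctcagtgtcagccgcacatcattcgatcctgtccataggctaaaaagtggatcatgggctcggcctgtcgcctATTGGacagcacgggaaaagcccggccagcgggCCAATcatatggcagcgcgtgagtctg
Sc5d: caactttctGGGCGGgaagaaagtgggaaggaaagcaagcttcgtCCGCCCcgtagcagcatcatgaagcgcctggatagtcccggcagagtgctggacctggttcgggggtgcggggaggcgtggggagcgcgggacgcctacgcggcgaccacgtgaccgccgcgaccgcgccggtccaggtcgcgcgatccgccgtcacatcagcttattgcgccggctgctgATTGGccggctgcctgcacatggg
Srebf1: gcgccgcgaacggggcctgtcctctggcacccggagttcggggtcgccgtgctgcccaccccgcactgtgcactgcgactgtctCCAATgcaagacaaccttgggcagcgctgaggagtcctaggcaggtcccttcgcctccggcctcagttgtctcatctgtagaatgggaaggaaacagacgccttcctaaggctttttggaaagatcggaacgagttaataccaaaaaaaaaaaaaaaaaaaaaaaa

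In GENCODE M21 on GRCm38, the genes behind these windows lie at chr13:119690379-119708260 for Hmgcs1, chr8:122433601-122443422 for Mvd, chr9:42251595-42264256 for Sc5d and chr11:60199089-60222581 for Srebf1. A gene on the opposite strand overlapped 8 of the 29 members, among them Ctsb at Fdft1, Akap9 at Cyp51 and Rai1 at Srebf1, and Vps51 overlapped Tm7sf2 on its own strand. Whether counting used strand is not given in the sources used here, so the levels of these members are uncertain by the reads they may share.

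SGC-like nuclei were rich in transcripts of nearly the whole pathway. In a fit blocked on library, against the average of the remaining 6 classes, 26 of 29 members were higher in SGC-like sums, where 19.8% of the 14205 genes tested were, and 0 members were lower. The median log2 difference was 1.17 over the members and 0.00078 over all genes tested. The 3 with the highest difference were Nsdhl, which takes part in removing methyl groups from sterols (2.51 ± 0.14; adjusted p = 4.32e-12), Lss, which closes squalene epoxide into lanosterol (1.94 ± 0.22; adjusted p = 3.69e-07), and Elovl6, which lengthens palmitate (1.90 ± 0.12; adjusted p = 5.55e-11; all log2 ± SE by edgeR).

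Nsdhl was measured at 313, 187 and 204 CPM in the adult, aged 1 and aged 2 SGC-like sums, the order used for all levels. It stood at 106, 37.0 and 39.5 CPM in MSC-like and at 78.2, 63.0 and 71.7 CPM in neuron-like sums, so each SGC-like value lay above each value of these other two classes. Lss stood at 77.3, 60.8 and 53.9 CPM in SGC-like sums and at 56.8, 49.2 and 69.6 CPM in neuron-like sums, ranges that overlapped. The members not called in SGC-like sums were Ebp, a sterol isomerase (-0.13 ± 0.17), Insig2 (0.091 ± 0.14) and Scap (0.11 ± 0.11).

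**Figure D1:**
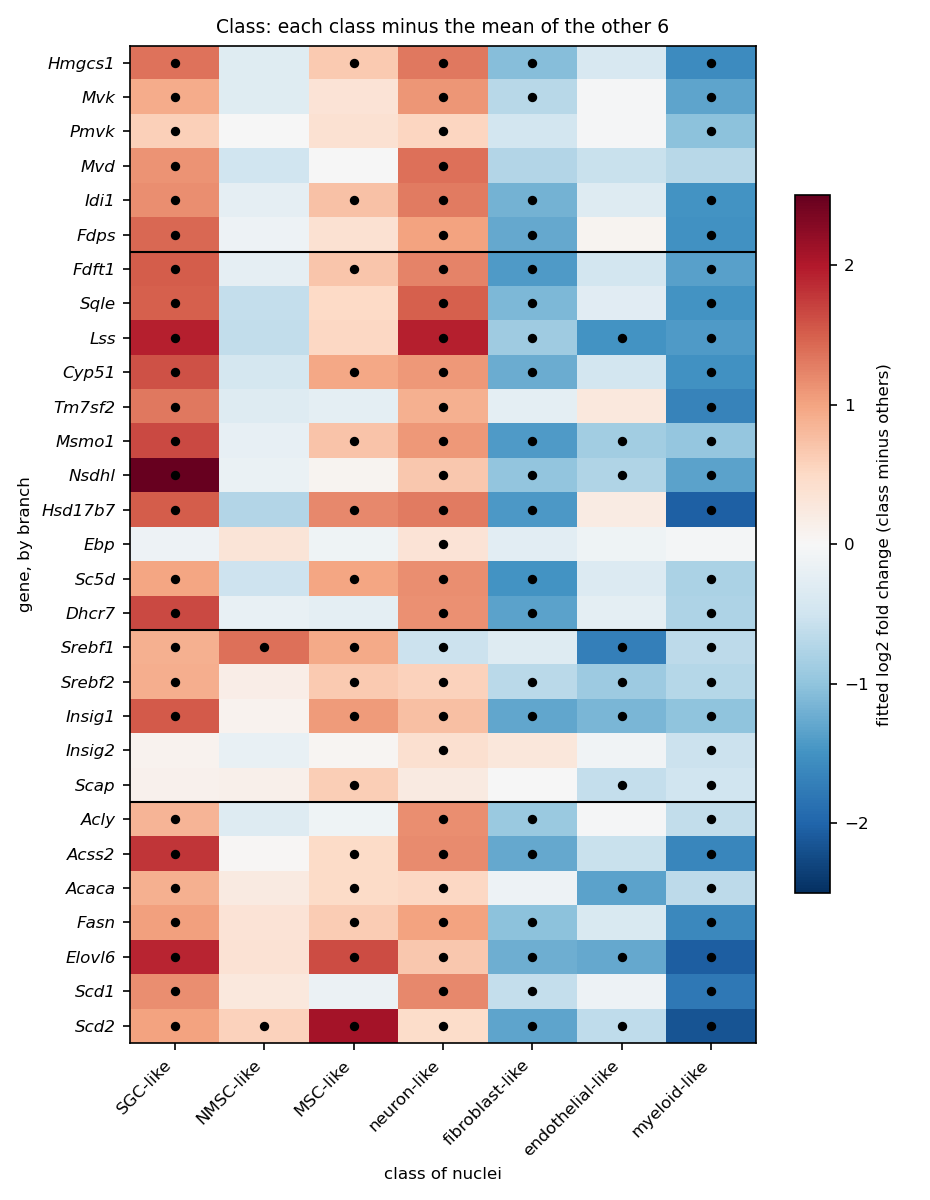
Fitted log2 difference of each class from the mean of the other 6 for the 29 genes (rows, by branch) in 7 classes (columns), over 3 libraries. Red is higher and blue lower, and a dot marks an adjusted p under 0.05: the SGC-like column holds 26 red dots, the neuron-like column 27 red and 1 blue, and the myeloid-like column 27 blue.

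Neuron-like sums had 27 of 29 members higher and 1 lower, where 36.8% of genes tested were higher and 29.9% lower. The lower one was Srebf1, at 24.3, 35.7 and 31.2 CPM. MSC-like sums had 16 of 29 members higher and 0 lower, where 17.9% of genes tested were higher. Without the adult library the MSC-like count was 10 higher, where 19.1% of all genes tested were higher. Scd2, a stearoyl-CoA desaturase abundant in nervous tissue, led in MSC-like sums (2.08 ± 0.11; adjusted p = 8.64e-13), followed by Elovl6 (1.63 ± 0.13; adjusted p = 1.40e-09) and Hsd17b7, a sterol ketoreductase (1.20 ± 0.27; adjusted p = 0.00123).

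Scd2 reached 1187, 1365 and 1216 CPM in MSC-like sums, against 431, 795 and 693 CPM in SGC-like and 464, 607 and 506 CPM in NMSC-like sums. The 3 MSC-like values lay above those of each other class. Hsd17b7 stood at 80.7, 25.9 and 28.2 CPM in MSC-like and at 42.3, 61.1 and 45.9 CPM in SGC-like sums, so MSC-like nuclei were above SGC-like ones in the adult library and below them in both aged ones.

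NMSC-like sums had 2 of 29 members higher and 0 lower, where 12.1% of genes tested were higher. They were Srebf1 (1.37 ± 0.19; adjusted p = 1.26e-05) and Scd2 (0.57 ± 0.12; adjusted p = 0.00134), and Elovl6 came next without passing the test (0.37 ± 0.15; adjusted p = 0.0943). Srebf1 was at 88.2, 135 and 109.9 CPM in NMSC-like sums, the highest of the 7 classes in each library. The other 3 classes were poor in these transcripts: 21 of 29 members were lower in fibroblast-like, 10 in endothelial-like and 27 in myeloid-like sums, where 17.5%, 12.3% and 28.5% of genes tested were lower.

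Summed over the mevalonate or the squalene and sterol branch, the order of the classes differed between the ages. The 6 mevalonate genes reached 863, 302 and 306 CPM in MSC-like, 685, 741 and 592 CPM in SGC-like, 587, 633 and 533 CPM in neuron-like and 339.7, 283 and 276 CPM in NMSC-like sums. MSC-like nuclei were thus the highest class in the adult library and lay below SGC-like and neuron-like nuclei in both aged ones. The 11 squalene and sterol genes reached 1270.0, 425 and 414 CPM in MSC-like, 1297, 1147 and 1029 CPM in SGC-like and 808, 788 and 789.8 CPM in neuron-like sums. For fatty acid synthesis MSC-like sums were the highest in each library, at 2312, 2215 and 2108 CPM. SGC-like sums came next, at 1790, 2134 and 1938 CPM.

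**Figure D2:**
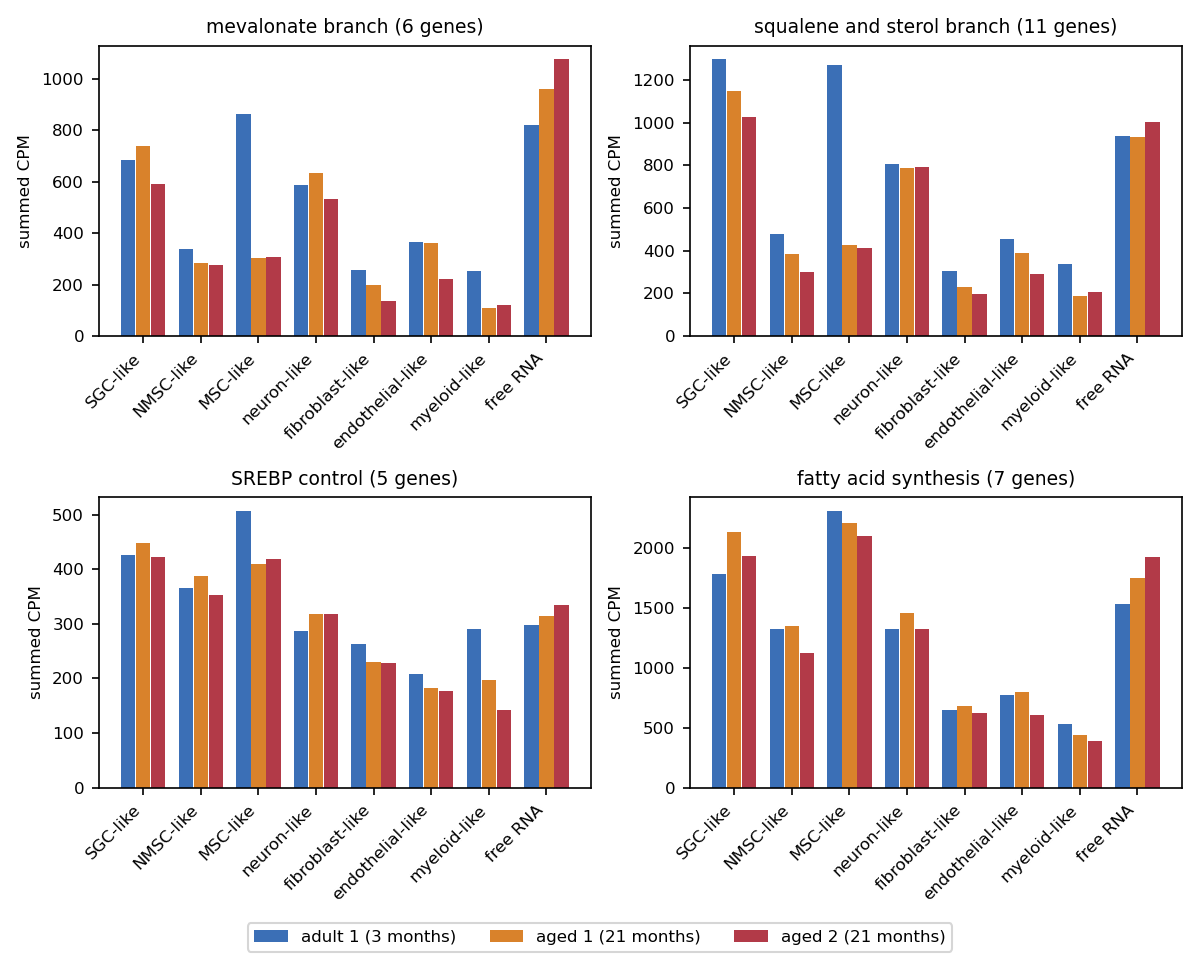
CPM summed over the genes of each branch (4 panels) for 7 classes and for RNA outside nuclei (free RNA), with 1 bar per library (blue adult 1, orange aged 1, red aged 2). The MSC-like bars read 863, 302 and 306 CPM for the mevalonate branch and 1270.0, 425 and 414 CPM for the sterol branch, while those for fatty acid synthesis read 2312, 2215 and 2108 CPM.

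In MSC-like nuclei of the aged libraries most genes of cholesterol synthesis were lower, whereas Scd1, Scd2, Fasn and Acaca did not pass the test. Of the 29 members 19 were called lower and 1 higher by edgeR's quasi-likelihood test, where 7.54% of the 13018 genes tested were lower and 5.06% higher. The mevalonate and sterol branches held 14 of the lower ones, from 17 members. The median log2 change was -1.59 over the mevalonate branch, -1.69 over the squalene and sterol branch, -0.33 over the control genes and -0.22 over the fatty acid genes, against -0.0054 over all genes tested. DESeq2's Wald test called 12 lower and 1 higher, where 0.768% of all genes tested were lower and 0.661% higher.

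In the mevalonate branch 5 of 6 genes fell. Hmgcs1, which makes the precursor of mevalonate, was measured at 439 against 157 and 152 CPM, from 768, 369 and 135 UMIs (-1.60 ± 0.15; adjusted p = 2.86e-25; log2 ± SE, as below). Mvd, the decarboxylase that yields isopentenyl diphosphate, stood at 25.7 against 5.52 and 6.77 CPM, from 45, 13 and 6 UMIs (-2.21 ± 0.47; adjusted p = 6.26e-05), and was not called in nuclei with more than 2000 genes (edgeR adjusted p = 0.0610). Idi1, the isomerase that acts next, stood at 115 against 37.0 and 23.7 CPM (-1.91 ± 0.22; adjusted p = 1.95e-15). In all 3 genes the aged libraries lay closer to each other than to the adult one. Fdps, which makes farnesyl diphosphate, was at 185 against 63.7 and 69.9 CPM (-1.59 ± 0.18; adjusted p = 8.67e-16). Pmvk, the kinase of phosphomevalonate, was at 71.5 against 22.5 and 38.4 CPM (-1.46 ± 0.26; adjusted p = 1.09e-06). Mvk, the kinase of mevalonate itself, was the one not called, at 25.7, 16.1 and 14.7 CPM (-0.81 ± 0.36; adjusted p = 0.124).

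In the squalene and sterol branch 9 of 11 genes fell. Fdft1, squalene synthase, stood at 286 against 99.4 and 77.8 CPM (-1.74 ± 0.16; adjusted p = 1.15e-23). Sqle, squalene epoxidase, stood at 109 against 41.6 and 35.0 CPM (-1.56 ± 0.22; adjusted p = 9.78e-11). Lss had the lowest fitted change of the 29 members, at 63.5 against 13.6 and 14.7 CPM (-2.28 ± 0.29; adjusted p = 1.39e-12). The aged Lss levels came close to the NMSC-like levels of 14.5, 13.5 and 17.2 CPM. Cyp51, the lanosterol demethylase, stood at 132 against 33.6 and 50.8 CPM (-1.84 ± 0.21; adjusted p = 5.14e-16). Msmo1, which oxidises methyl sterols, stood at 249.99 against 79.9 and 69.9 CPM (-1.81 ± 0.17; adjusted p = 2.01e-23). Sc5d, a late desaturase, stood at 184 against 57.8 and 47.4 CPM (-1.86 ± 0.19; adjusted p = 1.76e-20). The aged libraries again lay together and below the adult one.

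Nsdhl was at 106 against 37.0 and 39.5 CPM (-1.58 ± 0.22; adjusted p = 1.14e-10) and Hsd17b7 at 80.7 against 25.9 and 28.2 CPM (-1.69 ± 0.25; adjusted p = 2.22e-09). Dhcr7, which carries out a last reduction to cholesterol, was at 29.7 against 14.0 and 18.05 CPM (-1.05 ± 0.34; adjusted p = 0.0231), and its call was lost when RNA outside nuclei was subtracted (adjusted p = 0.177 by edgeR). The 2 members of the branch that were not called were Tm7sf2, a sterol reductase, and Ebp. Tm7sf2 stood at 21.2, 8.07 and 19.2 CPM (-0.94 ± 0.42; adjusted p = 0.131), with the aged libraries far apart. Ebp stood at 9.15, 13.6 and 13.5 CPM (0.47 ± 0.51; adjusted p = 0.637) and had the only change above 0 in these branches.

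**Figure D3:**
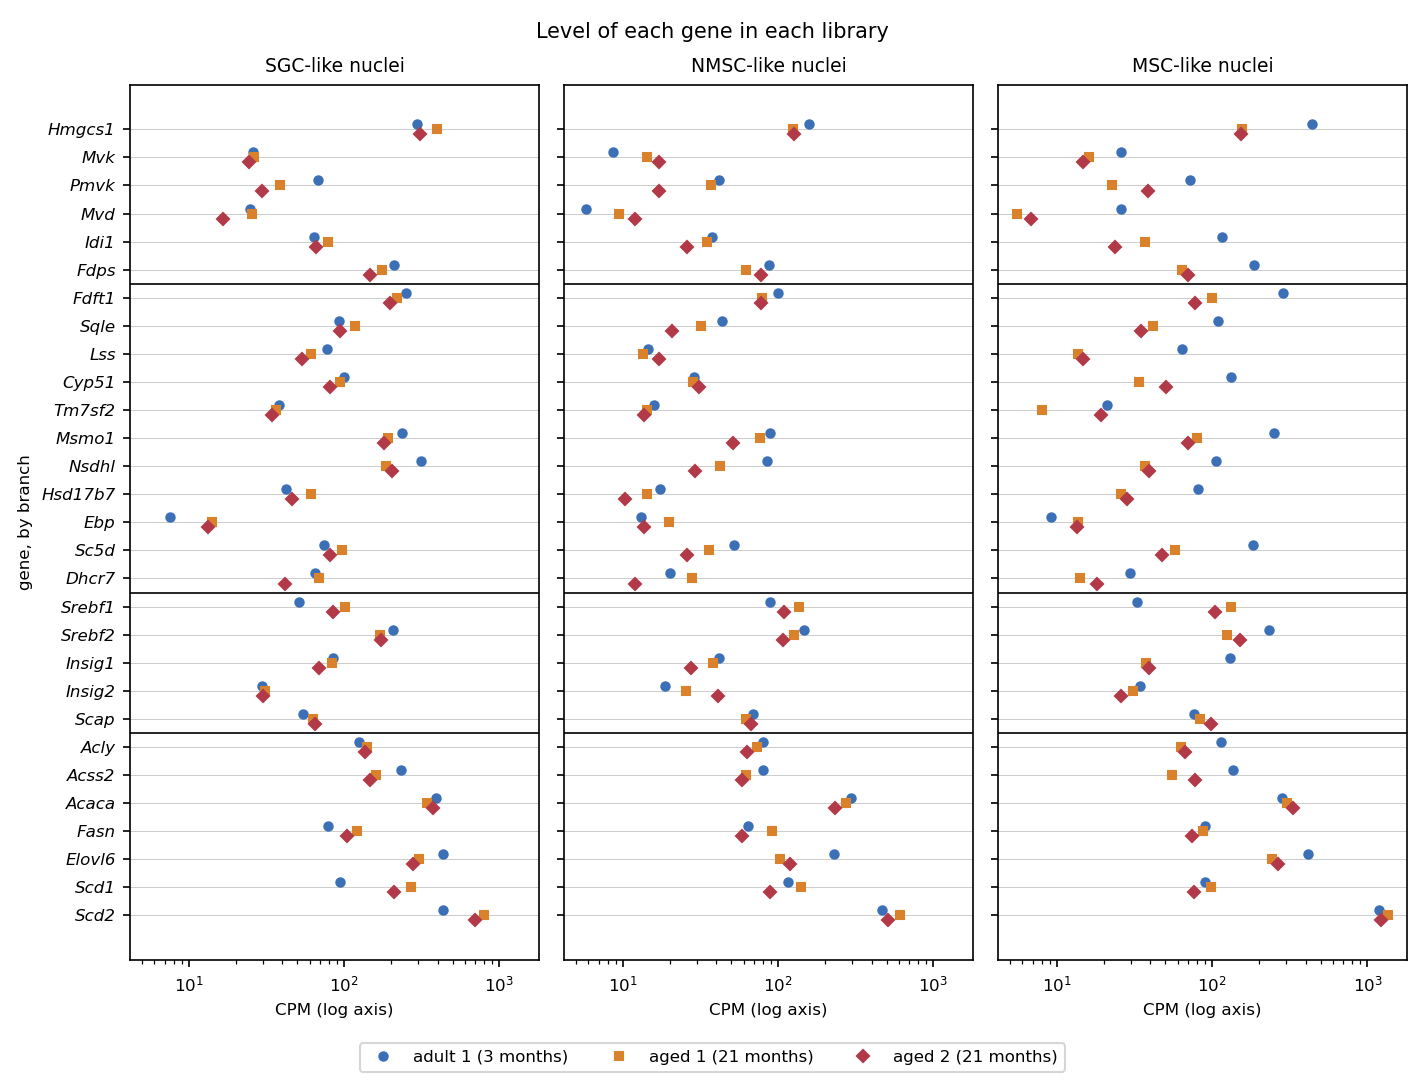
Level of each of the 29 genes (rows, by branch) in the SGC-like, NMSC-like and MSC-like sums of each library, in CPM on a log axis (blue circle adult 1, orange square aged 1, red diamond aged 2). In MSC-like nuclei the adult point lies to the right of both aged points for 16 of the 17 mevalonate and sterol genes, and to their left for Srebf1 (32.6, 132 and 104 CPM). Of the 10517 genes with enough UMIs in these sums, both aged values are below the adult one for 31.4% and above it for 48.5%.

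The control genes split. Srebf1 rose in MSC-like nuclei from 32.6 to 132 and 104 CPM (1.79 ± 0.23; adjusted p = 2.35e-12). Srebf2 fell from 232 to 125 and 151 CPM (-0.87 ± 0.16; adjusted p = 3.34e-06). Insig1, an SREBP target whose product restrains SREBP, fell from 131 to 37.4 and 39.5 CPM (-1.88 ± 0.21; adjusted p = 1.38e-16). For Srebf1 both aged libraries lay above the adult one, and for Srebf2 and Insig1 both lay below it. Insig2, at 34.3, 31.0 and 25.9 CPM, and Scap, at 76.7, 83.7 and 98.1 CPM, were not called (-0.33 ± 0.29; adjusted p = 0.547 and 0.12 ± 0.21; adjusted p = 0.786).

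Among the fatty acid genes 3 of 7 fell. Acly, which makes acetyl-CoA from citrate, was at 113 against 62.9 and 66.6 CPM (-0.92 ± 0.20; adjusted p = 0.000130). Acss2, which makes it from acetate, was at 136 against 54.8 and 77.8 CPM (-1.21 ± 0.19; adjusted p = 3.29e-08). Elovl6 was at 413 against 243 and 265 CPM (-0.81 ± 0.14; adjusted p = 4.03e-07). The 4 that did not pass the test were Acaca, the acetyl-CoA carboxylase (0.064 ± 0.14; adjusted p = 0.848), Fasn, the fatty acid synthase (-0.22 ± 0.20; adjusted p = 0.544), Scd1, a desaturase (-0.086 ± 0.20; adjusted p = 0.851), and Scd2 (0.029 ± 0.11; adjusted p = 0.915). Acaca stood at 283, 303 and 332 CPM and Scd2 at the levels given above, with the adult library within or close to the aged range.

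Myelin markers were also measured in these nuclei. Of the 10 markers used to name the class, 9 (Mbp, Prx, Pmp22, Mag, Ncmap, Drp2, Pllp, Cldn19 and Mal) summed to 13782, 11496 and 11018 CPM in MSC-like sums, with 9 of 9 detected and none at 0 in each library. Both aged sums lay below the adult one. They cover part of the marker list and do not stand for the whole of it. Markers of some other classes were lower as well in both aged MSC-like sums. The 11 neuron markers summed to 3316, 2299 and 1967 CPM and the 7 endothelial markers to 154, 82.4 and 46.3 CPM. The 11 lymphocyte markers summed to 82.9, 19.1 and 36.1 CPM. The 6 SGC markers summed to 436, 351 and 315 CPM and the 5 markers of red blood cells to 622, 422 and 237 CPM. Other lists were not lower in both: the 7 fibroblast markers stood at 1124, 1239 and 1143 CPM. The 7 NMSC markers stood at 1561, 1444 and 1731 CPM. The 10 myeloid markers stood at 58.9, 120 and 58.7 CPM, with Cd163 at 0 in the adult and aged 2 libraries. All neuron, SGC and red blood cell markers were detected in each library. Of the endothelial markers Emcn was at 0 in aged 2. Of the lymphocyte markers 1, 3 and 2 were at 0 in the adult, aged 1 and aged 2 libraries. The part of these markers in the result was not tested. The class was a single cluster of 578, 519 and 177 nuclei, with median depths of 2375, 3477 and 3884 UMIs, and Malat1 took 6.47, 2.14 and 2.12 percent of its UMIs. The part of this Malat1 difference in the result was not tested. RNA outside nuclei held the 17 mevalonate and sterol genes at 1757, 1893 and 2081 CPM, a level that was not lower in the aged libraries, and with that RNA subtracted the log2 change of Hmgcs1 was -2.17. Within nuclei of 2000 to 5000 UMIs, with medians of 2673, 3181 and 3342 UMIs, the change of Hmgcs1 was -1.59, and 17 members were lower and 1 higher, where 3.59% of all genes tested were lower and 1.94% higher.

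In SGC-like nuclei the age differences were smaller and ran both ways. Of the 29 members 7 were called lower and 3 higher, where 6.35% of the 16058 genes tested were lower and 7.57% higher. The median log2 change was -0.29 over the members and -0.0028 over all genes tested. DESeq2 called 4 lower and 2 higher, where 1.24% of all genes tested were lower and 1.93% higher. In nuclei of 2000 to 5000 UMIs (3140, 151 and 73 nuclei) 2 were lower and 2 higher, where 1.20% of all genes tested were lower and 0.891% higher, and the median log2 change of the members was -0.50. Acss2 was the one SGC-like member called under each of the 9 alternatives that gave a test.

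The makeup of the SGC-like sums also differed between libraries. The 11 markers used to name neurons summed to 2771, 5351 and 3626 CPM in SGC-like sums, with 11 of 11 detected and none at 0 in each library. Some other lists were lower in both aged sums. The 7 NMSC markers stood at 14894, 9312 and 10207 CPM, and the 5 markers of red blood cells at 258, 155 and 84.2 CPM. All of these were detected in each library. The NMSC list is not particular to NMSC-like nuclei, where it stood at 14486, 14666 and 14174 CPM. Its members Grik3 and Chl1 also marked all 3 SGC-like clusters, so its level does not count NMSC nuclei among the SGC-like ones. One of the 3 SGC-like clusters held 7, 54 and 21 nuclei, and with scanpy most adult SGC-like nuclei lay in a pair of clusters of 1744, 22 and 9 and of 1796, 51 and 24 nuclei and most aged ones in a cluster of 79, 385 and 197 nuclei. Their part in the result was not tested.

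The 3 genes that rose were the desaturases and Srebf1. Scd1 rose from 94.6 to 269 and 209 CPM (1.15 ± 0.20; adjusted p = 4.82e-07). Scd2 rose from 431 to 795 and 693 CPM (0.60 ± 0.21; adjusted p = 0.0413). In nuclei with more than 2000 genes neither was called, with edgeR log2 changes of 0.51 for Scd1 (adjusted p = 0.107) and 0.21 for Scd2 (adjusted p = 0.683). RNA outside nuclei held Scd1 at 198, 305 and 356 CPM and Scd2 at 626, 742 and 806 CPM, higher in the aged libraries as well, and with that RNA subtracted the change of Scd1 was 1.499. Srebf1 rose from 51.0 to 101 and 85.3 CPM (0.69 ± 0.20; adjusted p = 0.00726). Ebp came next without passing the test, at 7.57, 14.1 and 13.4 CPM (0.67 ± 0.33; adjusted p = 0.176).

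The genes that fell in SGC-like nuclei came from several steps. Pmvk had the lowest change, from 68.0 to 38.6 and 29.6 CPM (-1.16 ± 0.21; adjusted p = 1.88e-06). Nsdhl fell from 313 to 187 and 204 CPM (-0.87 ± 0.19; adjusted p = 0.000108). Acss2 fell from 234 to 159.7 and 147 CPM (-0.80 ± 0.18; adjusted p = 0.000414). In these genes both aged libraries lay well below the adult one. Elovl6 fell from 436 to 305 and 276 CPM (-0.78 ± 0.19; adjusted p = 0.00123). Smaller changes were those of Lss, from 77.3 to 60.8 and 53.9 CPM (-0.62 ± 0.20; adjusted p = 0.0187), and Fdps, from 209 to 176 and 147 CPM (-0.56 ± 0.18; adjusted p = 0.0236). Msmo1 fell from 235 to 192 and 180.1 CPM (-0.53 ± 0.19; adjusted p = 0.0355). The adult level of each was above both aged ones, as it was for 24.7% of the 14303 genes with enough UMIs, against 54.8% with both aged ones above. Hmgcs1, at 293, 396 and 308 CPM, and Sqle, at 93.1, 117 and 94.4 CPM, were not called in SGC-like nuclei (0.074 ± 0.20; adjusted p = 0.864 and -0.0013 ± 0.19; adjusted p = 0.997).

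In NMSC-like nuclei, which numbered 232, 247 and 121, 28 of the 29 members passed the filter on low counts. The one that did not was Mvd, at 4, 12 and 7 UMIs. Of those tested 2 were lower and 0 higher, where 4.05% of the 10525 genes tested were lower and 3.11% higher. At an unadjusted p under 0.05 there were 4 of the 28 members by edgeR and 1828 of 10525 genes, so the members' share was not above that of all genes. DESeq2 called 0 lower and 0 higher, where 0.684% of all genes tested were lower and 0.713% higher. The median log2 change was -0.40 over the members tested, with 22 below 0, and -0.51 over the mevalonate and sterol genes, against 0.010 over all genes tested. In the NMSC-like sums the 7 fibroblast markers reached 645, 1593 and 1471 CPM. The 6 markers of cycling cells reached 27.5, 127 and 125 CPM, and the 6 SGC markers 731, 537 and 505 CPM. All of these were detected in each library, with none at 0. The 10 myeloid markers reached 57.8, 255 and 97.8 CPM, with 7, 9 and 8 of them detected. RNA outside nuclei made up an estimated 23.6%, 12.7% and 11.1%. Their part in the result was not tested. Nsdhl stood at 85.3 against 42.0 and 29.2 CPM (-1.37 ± 0.35; adjusted p = 0.00282). Elovl6 stood at 229.8 against 103 and 120.2 CPM (-1.23 ± 0.25; adjusted p = 4.88e-05). Both aged libraries lay below the adult one in these genes, as they did for 27.1% of the 8266 genes with enough UMIs, against 51.0% with both above. The next lowest value was that of Sc5d, at 52.0, 35.6 and 25.7 CPM (-0.87 ± 0.40; adjusted p = 0.204). The highest were those of Mvk, at 8.67, 14.3 and 17.2 CPM (0.65 ± 0.88; adjusted p = 0.787), Insig2, at 18.8, 25.3 and 41.2 CPM (0.57 ± 0.50; adjusted p = 0.635), and Srebf1 (0.33 ± 0.30; adjusted p = 0.644). None of these 4 passed the test.

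**Figure D4:**
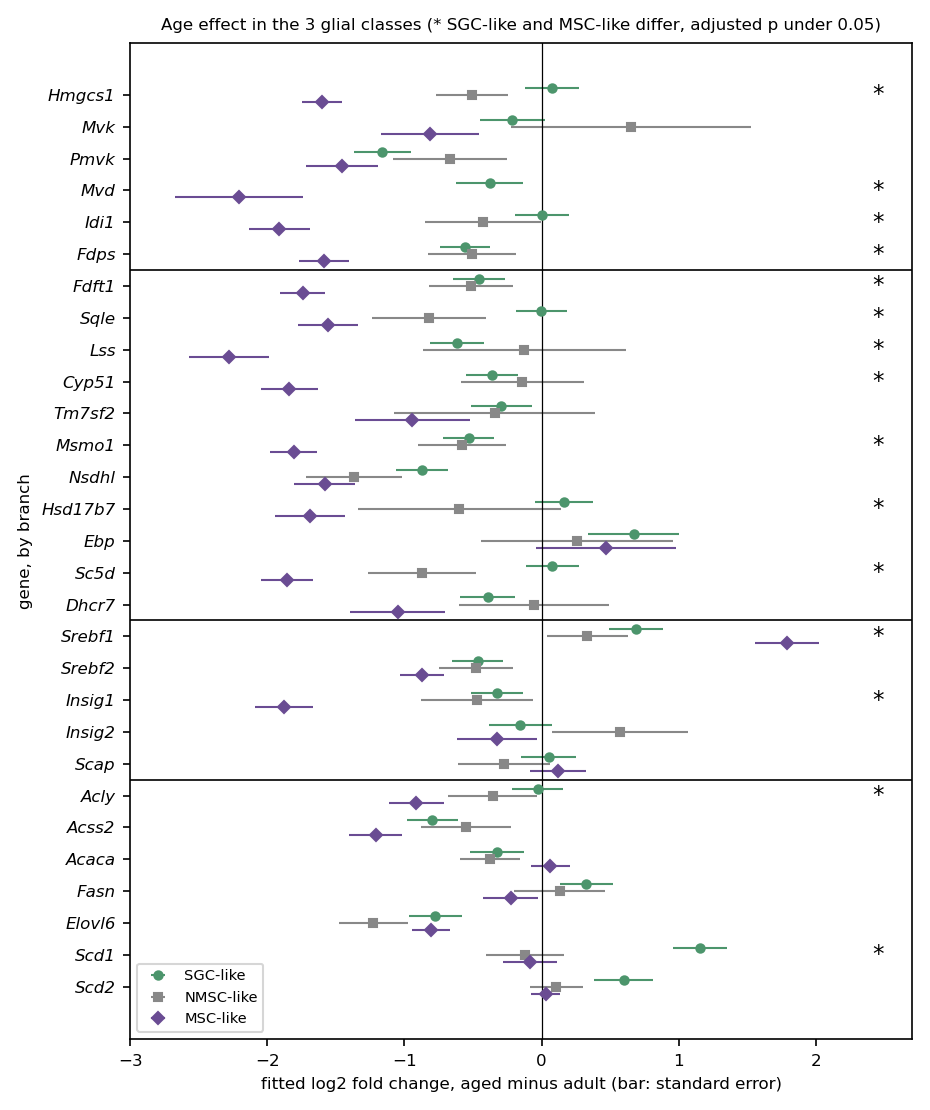
Fitted log2 change from adult to aged libraries with its standard error (bar) for the 29 genes (rows, by branch) in SGC-like (green circle), NMSC-like (grey square) and MSC-like (purple diamond) sums. A star marks the 15 genes whose change differed between SGC-like and MSC-like sums; the medians over the 17 mevalonate and sterol genes were -1.60 in MSC-like and -0.36 in SGC-like sums.

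The difference between glial classes was tested directly, as the interaction of class and age with the library as a block. The block takes out what a library shifts alike in both classes. With 1 adult library, shifts that differ by class cannot be told apart from age, and these p-values too draw on the aged libraries only. Between SGC-like and MSC-like sums 15 of 29 members differed, where 10.5% of the 14903 genes tested did. The change was lower in MSC-like sums for 14 of the 15, and higher there for Srebf1 (SGC-like minus MSC-like, -1.10 ± 0.29; adjusted p = 0.00390). The widest differences were those of Sc5d (1.94 ± 0.25; adjusted p = 1.20e-11), Idi1 (1.94 ± 0.28; adjusted p = 1.19e-09) and Hsd17b7 (1.87 ± 0.30; adjusted p = 1.44e-07). All 15 were called in the same direction under each of the 4 alternatives run. These were DESeq2's size factors, no filter on low counts, scanpy clusters and subtraction of RNA outside nuclei. The alternatives on depth per nucleus were not run for this test. Pmvk, Nsdhl, Acss2 and Elovl6, which fell in both classes, did not pass this test, with differences of 0.30 ± 0.31, 0.67 ± 0.26, 0.40 ± 0.25 and 0.021 ± 0.21.

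Between NMSC-like and MSC-like sums 8 of 29 members differed, where 2.39% of the 12653 genes tested did. The change was lower in MSC-like sums for Hmgcs1 (1.11 ± 0.26; adjusted p = 0.00392), Idi1, Fdft1, Lss, Cyp51, Msmo1 and Insig1, and higher for Srebf1 (-1.43 ± 0.36; adjusted p = 0.0102). Of the 8, 4 (Hmgcs1, Fdft1, Cyp51 and Msmo1) were called under each of the 4 alternatives. Between SGC-like and NMSC-like sums 1 member differed, where 5.17% of the 14348 genes tested did. It was Scd1 (1.27 ± 0.27; adjusted p = 0.000154), which stood at 116, 141 and 89.3 CPM in NMSC-like sums.

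In the other classes, as in NMSC-like sums, few members were called. In neuron-like sums, from 4111, 2297 and 1248 nuclei, edgeR called 0 of 29 members in either direction, where 4.08% of the 21643 genes tested were lower and 0.661% higher, and 1 member had an unadjusted p under 0.05, against 3695 of 21643 genes. The fitted changes in neurons ran from -0.49 to 0.34. In fibroblast-like sums 2 of 29 were lower and 0 higher, where 4.01% of 13478 genes were lower and 2.98% higher. They were Fdps, at 60.4, 41.7 and 17.2 CPM (-1.02 ± 0.29; adjusted p = 0.00821), and Insig1, at 29.2, 10.9 and 9.54 CPM (-1.56 ± 0.39; adjusted p = 0.00226). Over the 17 mevalonate and sterol genes the fibroblast-like median was -0.72, with 14 below 0, against 0.020 over all genes tested. In the fibroblast-like sums the 11 neuron markers reached 2472, 2378 and 1493 CPM, with all detected, and the 11 lymphocyte markers 82.8, 33.2 and 24.8 CPM, with 0, 2 and 4 of them at 0, and RNA outside nuclei made up an estimated 18.7%, 12.4% and 8.22%. Their part in the result was not tested.

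Endothelial-like and myeloid-like sums had 26 members past the filter each. In endothelial-like sums edgeR called 0 members, where 1.30% of 10650 genes were lower and 0.366% higher, and 0 members had an unadjusted p under 0.05, against 1067 of 10650 genes. In myeloid-like sums, from 96, 218 and 179 nuclei, 3 were lower and 0 higher, where 5.98% of 10828 genes were lower and 6.22% higher. Sqle stood at 52.2, 8.18 and 15.3 CPM, from 14, 8 and 12 UMIs (-2.12 ± 0.63; adjusted p = 0.0191). Hmgcs1 stood at 112, 52.2 and 47.2 CPM (-1.11 ± 0.35; adjusted p = 0.0296) and Scd1 at 74.5, 28.6 and 22.99 CPM (-1.46 ± 0.46; adjusted p = 0.0266). Both aged libraries lay below the adult one in all 3. Of the 7234 genes with enough UMIs in these sums, both aged values were below the adult one for 39.3% and above it for 45.3%. The myeloid-like median was -0.75 over the 26 members tested, with 24 below 0, against 0.015 over all genes tested, and the 17 mevalonate and sterol genes summed to 592, 295 and 328 CPM. Markers of other classes were lower as well in the aged myeloid-like sums: the 11 neuron markers summed to 2276, 1404 and 1002 CPM, the 7 NMSC markers to 1308, 664 and 614 CPM and the 11 lymphocyte markers to 611, 117 and 169 CPM. All neuron and NMSC markers were detected in each library, and 1, 5 and 3 of the lymphocyte markers were at 0 in the adult, aged 1 and aged 2 libraries. The estimated share of RNA outside nuclei was 17.2%, 7.33% and 5.52%. Their part in the result was not tested.

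**Figure D5:**
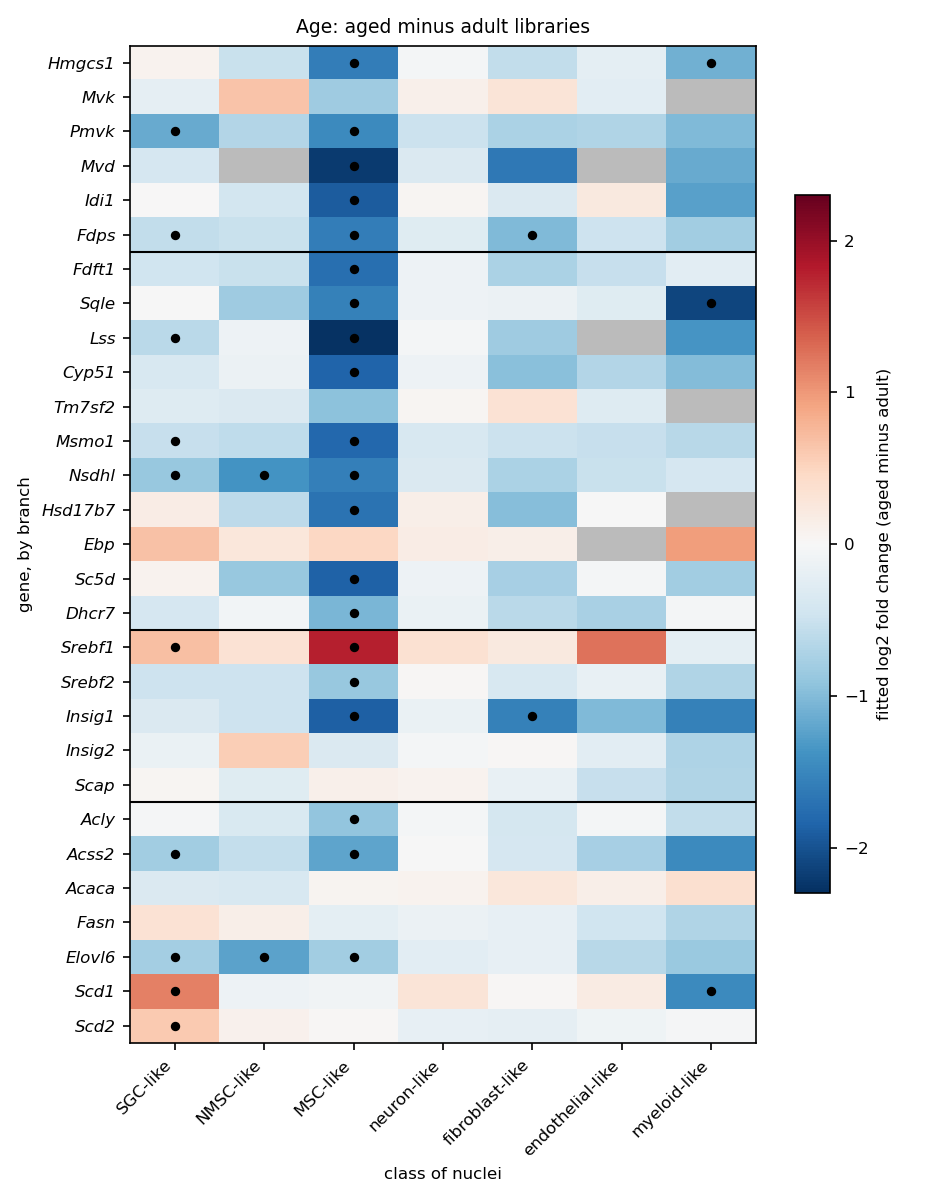
Fitted log2 change from adult to aged libraries for the 29 genes (rows, by branch) in 7 classes (columns); blue is lower and red higher in aged libraries, a dot marks an adjusted p under 0.05, and grey marks a gene under the filter on low counts. The MSC-like column carries 20 dots, the SGC-like column 10, and the neuron-like and endothelial-like columns 0.

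A further 10 genes of lipid synthesis and 9 of sterol handling gave context. Of the 10 synthesis genes 1 was lower in SGC-like, 2 in NMSC-like, 6 in MSC-like, 4 in fibroblast-like and 3 in myeloid-like sums, and 0 were higher in any of these. Over all genes tested the shares lower were, in that order, 6.35%, 4.05%, 7.54%, 4.01% and 5.98%. The 3 with the smallest p in SGC-like sums were Fads2, a desaturase of polyunsaturated fatty acids, at 419, 282 and 323 CPM (-0.66 ± 0.19; adjusted p = 0.00785), Fads1, another such desaturase, at 144, 117 and 125 CPM (-0.44 ± 0.18; adjusted p = 0.0893), and Gpam, which starts glycerolipid synthesis, at 852, 649 and 741 CPM (-0.48 ± 0.21; adjusted p = 0.107).

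Of the 9 sterol handling genes 0 were called in SGC-like sums by edgeR, with 1 at an unadjusted p under 0.05, against 4216 of 16058 genes. The 3 with the smallest p there were Mylip, whose product degrades the LDL receptor, at 94.3, 81.8 and 71.6 CPM (-0.48 ± 0.19; adjusted p = 0.0674), Abcg1, a sterol exporter, at 108, 101 and 101 CPM (-0.29 ± 0.19; adjusted p = 0.319), and Nr1h3, a liver X receptor, at 4.85, 6.87 and 9.40 CPM (0.51 ± 0.42; adjusted p = 0.473). In MSC-like sums 2 of the 9 were higher and 1 lower, where 5.06% of all genes tested were higher and 7.54% lower. These were, chosen after their values were seen, Abca1, the exporter of cholesterol to apolipoproteins, from 69.8 to 384 and 331 CPM (2.27 ± 0.18; adjusted p = 7.58e-34), Mylip, from 114 to 177 and 177 CPM (0.54 ± 0.18; adjusted p = 0.0223), and Npc2, a lysosomal cholesterol carrier, from 95.0 to 68.8 and 66.6 CPM (-0.58 ± 0.21; adjusted p = 0.0416). In NMSC-like sums, where 3.11% of genes tested were higher, Abca1 alone was, from 215 to 427 and 405 CPM (0.79 ± 0.22; adjusted p = 0.00969). In fibroblast-like sums, where 2.98% of genes tested were higher, 2 of the 9 were higher and 0 lower, Abca1, from 147 to 277 and 303 CPM (0.92 ± 0.21; adjusted p = 0.000583), and Nr1h3, from 9.01 to 21.7 and 26.7 CPM (1.35 ± 0.42; adjusted p = 0.0265). In neuron-like and endothelial-like sums edgeR called 0 of the 9, with 2 and 1 at an unadjusted p under 0.05. In myeloid-like sums 6 of the 9 were higher and 0 lower, where 6.22% of genes tested were higher.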

How the data were processed

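The authors deposited raw UMI counts per gene and barcode for every barcode, per the file headers with no normalization, from PIP-seq libraries of DRG nuclei. The submitters' processing notes name mm10. The annotation, and whether counting used strand, are not given in the sources used here. Following the study's methods, nuclei were taken as barcodes of over 1000 genes, then passed through SCTransform and RPCA integration of the ages in Seurat 5.3.0 (R 4.3.3; 30 components, resolution 0.8) and clustered. A cluster was named where at least 3 markers of a class were over a log2 fold of 1 and in 10% of its nuclei, by a rule written after the clusters were seen. A cluster was left out where it also had at least 50% of a second class's markers, except between SGC and NMSC and for NMSC markers in neurons, or where 3 or more mitochondrial genes were among its top 10. Kept clusters could thus carry markers of another class, as the NMSC-like one did for SGC, MSC and fibroblasts. No doublet caller was run. No lymphocyte-like class was compared.

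Nuclei are not replicates, so counts were summed per class and library and tested with edgeR 4.0.16 (quasi-likelihood, TMM, filterByExpr, prior count 0.125), with Benjamini-Hochberg adjustment over all genes. The pair of aged libraries left age fits 1 residual degree of freedom, and interaction fits 1 as well. The fits pool the spread over genes. Class fits and interactions had the library as a block. The libraries held 167664164, 95647106 and 69045987 UMIs. Scripts were tested on simulated data.

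Alternatives were DESeq2 1.42.0, its size factors in edgeR, no filter on low counts, scanpy 1.11.5 clusters, more than 2000 genes per nucleus, thinning to 1000 UMIs, subtraction of RNA outside nuclei, 1 fit over all classes, leaving out each library and, chosen after seeing the data, nuclei of 2000 to 5000 UMIs. Values are given for members called for age in a glial class, for the 3 with the largest change in each direction, for the 3 with the largest difference of each glial class from the others, and, in the other lists, for the 3 with the smallest p in SGC-like sums. The members and lists were chosen with earlier results of these data known. Some results are not reported here.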

Additional observations from a re-analysis of the deposited data

Results flagged for a closer look

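The change with age differed between glial classes for the members below, by edgeR's test of the interaction of class and age. Each value is the log2 change in the first class minus that in the second, so a value above 0 marks a lower change in the second class. The other direction was found only for Srebf1.

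Between SGC-like and MSC-like sums the mevalonate genes differed by 1.67 ± 0.22 (SE) for Hmgcs1, 1.87 ± 0.50 for Mvd, 1.94 ± 0.28 for Idi1 and 1.03 ± 0.24 for Fdps. The squalene and sterol genes differed by 1.29 ± 0.23 for Fdft1, 1.58 ± 0.27 for Sqle, 1.67 ± 0.34 for Lss, 1.47 ± 0.27 for Cyp51, 1.27 ± 0.23 for Msmo1, 1.87 ± 0.30 for Hsd17b7 and 1.94 ± 0.25 for Sc5d. Of the control genes, Insig1 differed by 1.55 ± 0.27 and Srebf1 by -1.10 ± 0.29. Of the fatty acid genes, Acly differed by 0.87 ± 0.25 and Scd1 by 1.26 ± 0.25.

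Between NMSC-like and MSC-like sums the differences were 1.11 ± 0.26 for Hmgcs1, 1.53 ± 0.45 for Idi1, 1.25 ± 0.31 for Fdft1, 2.15 ± 0.62 for Lss, 1.71 ± 0.46 for Cyp51, 1.26 ± 0.33 for Msmo1, 1.44 ± 0.43 for Insig1 and -1.43 ± 0.36 for Srebf1. Between SGC-like and NMSC-like sums Scd1 differed by 1.27 ± 0.27. The 3 comparisons share libraries, and each pair of them shares a class. No group held 4 samples, so no library was tested as standing apart.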

How the results depend on the processing

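With 1 adult library, leaving out an aged library leaves age changes with no test. Members called for age kept their sign in every alternative in which they were tested, and 13 of 20 MSC-like, 1 of 10 SGC-like and 0 of 2 NMSC-like calls were made under each of the 9 alternatives with a test. The causes of the following differences were not tested. The 3 SGC-like members called higher became 1 with more than 2000 genes per nucleus (337 of 15492 genes were higher there, against 1216 of 16058 in the comparison as reported) and 1 with 1 fit over all classes (596 of 15792). The 7 called lower, where 1020 of 16058 genes were, became 4 with DESeq2, 4 after thinning (264 of 9922 genes), 4 with 1 fit over all classes (478 of 15792), 2 in nuclei of 2000 to 5000 UMIs and 9 with RNA outside nuclei subtracted (811 of 15064), while the SGC-like median moved from -0.29 to -0.50 in the same depth window. The 2 NMSC-like members called lower became 0 with DESeq2, 1 with more than 2000 genes and 1 after thinning, where 269 of 9184 and 178 of 6294 genes were lower against 426 of 10525, and the 19 MSC-like ones became 12 with DESeq2. Leaving out 1 library at a time, class counts of higher members ran from 24 to 27 in SGC-like, 2 to 3 in NMSC-like and 10 to 15 in MSC-like sums, where lower members ran from 0 to 1. Without the adult, aged 1 and aged 2 library in turn, 3835 of 14153, 1866 of 13569 and 2064 of 15119 genes were higher in SGC-like sums, 1847, 1077 and 1272 of the same totals in NMSC-like and 2707, 1785 and 2066 in MSC-like sums. Of the interactions, SGC-like minus NMSC-like gave 2 higher with scanpy clusters, where 546 of 14554 genes were higher. NMSC-like minus MSC-like gave 4 higher with no filter, where 148 of 23587 genes were higher. With scanpy clusters it gave 0 lower, where 122 of 12615 genes were lower.

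The log2 ratio of aged to adult branch sums in MSC-like nuclei was -1.51 for the mevalonate branch (-1.58 with more than 2000 genes, -2.04 with RNA outside nuclei subtracted). In the same order it was -1.60, -1.64 and -1.97 for the sterol branch, -0.29, -0.26 and -0.42 for the control genes, and -0.097, -0.19 and -0.21 for the fatty acid genes. The NMSC-like mevalonate ratio was -0.28, -0.56 and -0.078, and the SGC-like fatty acid ratio fell from 0.19 to 0.086 with more than 2000 genes. All these ratios are of CPM before edgeR's rescaling. In the comparison as reported, the median gene on that log2 scale was higher in aged libraries. The shift was 0.22 in SGC-like, 0.16 in NMSC-like and 0.17 in MSC-like sums. Changes that turned sign, none of them called, were NMSC-like Insig2 (-0.017 with more than 2000 genes), NMSC-like Mvk (-0.084 with scanpy clusters) and MSC-like Scap (-0.029 with RNA outside nuclei subtracted).

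Without the replicate block for the library, class comparisons called 25 members higher in SGC-like, 2 in NMSC-like and 15 in MSC-like sums, and 0 lower in each, where 2408, 1538 and 2231 of 14205 genes were higher. No paired analysis was possible because the age groups share fewer than 2 replicate numbers. In small classes depth limits single genes to few UMIs, as for Mvd in NMSC-like sums.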
